A study of Mus musculus with 12 samples.

Results

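RNA polymerases I, II and III were followed through the genes that encode their subunits. The members were the gene symbols that begin with Polr1, Polr2 or Polr3 and end in letters only, and 28 of the 24062 gene symbols in the data met that rule. By textbook composition, 3 of them belong to Pol I alone, 2 are shared by Pol I and Pol III, 5 are shared by all 3 enzymes, 8 go with Pol II and 10 with Pol III. Pol I subunits Twistnb, Cd3eap and Znrd1 and the Pol III subunit Crcp are listed under other symbols and were kept as related genes.

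RNA-seq libraries of 12 mice, 1 per mouse, held 4 groups of 3. MYC-ON livers came from FVB mice of the cross LAP-tTA/TRE-MYC, male in the study's methods. In these mice the MYC transgene is switched on in the liver once doxycycline is withdrawn at birth. Of these livers, 3 were from mice on the control diet (101, 102 and 103) and 3 from mice on the No-Trp diet, which has no tryptophan (105, 107 and 108). HCC53N xenografts were tumors of 1 mouse liver cancer cell line that the study's methods describe as p53-deleted with mutant NRAS. They were grown under the skin of NOD SCID mice, 3 fed the control diet (40, 41 and 43) and 3 the No-Trp diet (35, 36 and 37). The methods name female hosts and mention a repeat in males. Both models were on the diets for 21 days. The age of these mice is not given in the labels for the diet experiment. The labels name the tumor cells MYC ON as well, and whether HCC53N carries the transgene was not settled here.

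Pol I transcribes the ribosomal RNA precursor, Pol II transcribes messenger RNA, and Pol III transcribes transfer RNA, 5S ribosomal RNA and other short RNAs. The largest and second largest subunits of each enzyme form the active site, an assembly pair holds them together, a stalk contacts the emerging RNA, and a few small subunits are common to all of them. Ribosome and tRNA production rises in growing cells, and MYC is known to raise the output of all these enzymes. In vertebrates the RPC7 position of Pol III is filled by either of a pair of paralogs, Polr3g, which is known from stem cells and tumors, or Polr3gl, which is known from differentiated tissue.

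Depth was 14660963 to 26085349 reads counted on genes per library, and no library stood apart in depth. One library stood apart in its share of the ribosomal precursor Rn45s. It took 12.1% of the counts of control liver 101, 2.22% of those of control liver 102 and at most 0.758% of those of any other. Reads not counted were 39.4% in control tumor 43 and 36.1% in control liver 101, against at most 32.2% elsewhere. Reads on no annotated gene were 23.3% and 18.3% in these libraries, against at most 16.9% elsewhere. In control xenografts against control livers, Trp53 had a log2 fold change of −2.73 and Nras one of 2.17, the directions that the line's description has. Counts of the mouse gene Myc, normalised over all 12 libraries, were 613 to 805 in control livers, 703 to 2690 in No-Trp livers and 3480 to 5805 in the xenografts. The study counted the transgene apart, from reads that aligned better to human MYC, so the mouse row does not measure it. In the paper, MYC was lower in No-Trp than in control MYC-ON livers. The summed level of 12 hepatocyte markers was 25551 to 144930 TPM (reads per exon length, scaled to the same sum in every library) in the livers and 1227 to 3207 in the xenografts. One of them, Ass1, was at 0 in all 6 xenograft libraries but also at only 0.0616 to 0.288 TPM in the livers. In the xenografts 6 cholangiocyte markers summed to 7286 to 21468 TPM, against 143 to 240 in the livers. Most of the xenograft sum was Spp1, at 6054 to 20153 TPM, followed by Krt19 at 337 to 1307. The labelled liver cancer cells thus carried a low summed level of hepatocyte markers. The gap was smaller for Hnf4a, at 115 to 259 TPM in the xenografts and 279 to 480 in the livers.

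The CACGTG sequence, the E box that MYC binds in its complex with MAX, was found in 4 of the 22 members with a promoter window in the RefSeq set (GRCm38.p6, 250 bases before to 50 after an annotated start). That is 18.2%, against 8.09% of all 27025 genes with a window. The letters read the same on both strands, so each site was counted once. Polr2d, Polr2g, Polr2k, Polr3a and Polr3d have no entry in that set. Of the 4 members, 3 belong to Pol III (Polr3c, Polr3e and Polr3gl) and Polr2h is common to all enzymes. They are printed because they went apart on the diet in the livers described further on: Polr2h and Polr3e fell, while Polr3c had a log2 fold change of −0.11 and Polr3gl one of 0.47, neither of which passed the test. Windows run 5′ to 3′ on the gene's own strand, with the E box in capitals. In Polr3e the earlier run of capitals is a match to the B box, an internal promoter element of tRNA genes, searched as GGTTCGA followed by NN and CC.
Polr2h: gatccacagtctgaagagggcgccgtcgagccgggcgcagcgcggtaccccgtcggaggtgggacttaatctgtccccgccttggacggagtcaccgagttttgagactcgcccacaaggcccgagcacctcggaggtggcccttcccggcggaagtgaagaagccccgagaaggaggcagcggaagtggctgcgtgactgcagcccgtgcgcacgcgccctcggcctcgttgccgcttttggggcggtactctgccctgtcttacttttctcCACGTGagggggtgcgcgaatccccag
Polr3c: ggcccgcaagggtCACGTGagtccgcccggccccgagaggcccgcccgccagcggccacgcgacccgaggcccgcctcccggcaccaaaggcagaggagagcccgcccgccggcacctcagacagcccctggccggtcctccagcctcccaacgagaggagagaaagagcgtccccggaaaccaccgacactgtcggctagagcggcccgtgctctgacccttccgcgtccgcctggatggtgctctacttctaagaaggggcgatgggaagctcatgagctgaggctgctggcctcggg
Polr3e: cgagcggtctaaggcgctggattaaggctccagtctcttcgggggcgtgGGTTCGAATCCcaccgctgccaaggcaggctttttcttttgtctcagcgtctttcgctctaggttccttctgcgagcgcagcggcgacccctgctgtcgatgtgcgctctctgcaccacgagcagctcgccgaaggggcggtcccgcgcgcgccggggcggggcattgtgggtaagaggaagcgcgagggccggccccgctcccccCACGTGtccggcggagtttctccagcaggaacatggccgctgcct
Polr3gl: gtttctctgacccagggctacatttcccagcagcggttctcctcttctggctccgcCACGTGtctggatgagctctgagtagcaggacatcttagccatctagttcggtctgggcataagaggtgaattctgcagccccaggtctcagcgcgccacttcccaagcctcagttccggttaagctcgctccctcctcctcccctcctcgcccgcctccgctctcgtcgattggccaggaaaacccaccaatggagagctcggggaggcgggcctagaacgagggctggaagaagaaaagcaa
These windows lie at chr16:20717576-20717875 on the plus strand, chr3:96727390-96727689 on the minus strand, chr7:120917528-120917827 on the plus strand and chr3:96594132-96594431 on the minus strand. Counted from the annotated start at 0, the E box begins at 23 in Polr2h, −237 in Polr3c, 5 in Polr3e and −194 in Polr3gl. The B box match in the Polr3e window begins at −201, at position 120917577 of chromosome 7. It lies before the annotated start of Polr3e and thus outside the gene, and which gene it belongs to was not tested. On either strand the searched B box occurs in 40 of all 32851 windows, 0.122%, and in 1 of the 24 windows of the members. A match describes the letters of a window and was not tested as a site of binding.

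Every one of the 28 subunits was expressed in every group. In control livers the highest level was that of Polr2m, the Pol II associated protein GDOWN1, with 197 ± 46.3 TPM (SD, n = 3), followed by the Pol II stalk subunit Polr2g with 163 ± 32.9 and the Pol II assembly subunit Polr2j with 162 ± 31.7. Each of these differed from the next by less than the SD of the higher one. The lowest levels were those of Pol III subunits: Polr3f had 10.2 to 12.5 TPM, the largest subunit Polr3a 18.6 to 28.2, and Polr3g 20.4 to 28.5. Among the catalytic subunits, means of Pol I and Pol II lay above those of Pol III in control livers, with Polr1b at 74.6 to 116 TPM, Polr2b at 63.6 to 98.7 and Polr3b at 32.2 to 46.6. Polr2m and Polr2g held the highest and second highest mean in all 4 groups, and Polr3f and Polr3g were among the 3 lowest in each. The 28 genes together took 0.191% to 0.248% of the counts in control livers, 0.0906% to 0.145% in No-Trp livers and 0.195% to 0.215% in the xenografts of both diets.

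**Figure D1:**
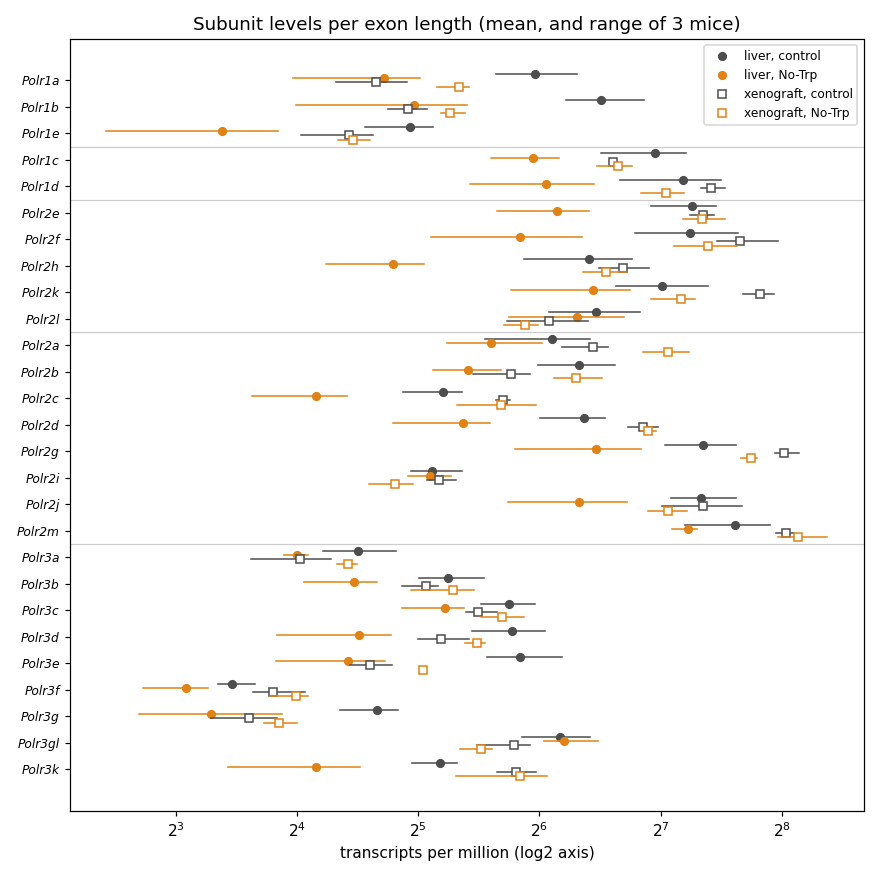
Level of the subunits in TPM (log2 axis), as mean (symbol) and range (line) of the 3 mice of a group, in blocks for Pol I, Pol I and III, all enzymes, Pol II and Pol III from top to bottom. Polr2m and Polr2g are highest in all 4 groups, and the No-Trp livers lie below the control livers for most subunits on this scale, which takes no account of shifts in composition.

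In the MYC-ON livers, 9 of the 28 subunits fell on the No-Trp diet (edgeR, adjusted p of at most 0.05), among them all 3 that belong to Pol I alone, and 0 were higher. The other calls were 2 of the 5 shared subunits, 1 of the 8 of Pol II and 3 of the 10 of Pol III. Among all 14122 genes tested, 12% were called lower and 13.3% higher. At an unadjusted p under 0.05, 18 subunits were lower and 1, Polr3gl, was higher, against 41.8% of all genes in either direction. DESeq2 called 12 lower and 0 higher, and its share over all genes was not computed. Fold changes were negative for 23 subunits and positive for 5, with a median of −0.62 on the log2 scale, while the median over all genes was −0.0031. With library totals in place of TMM scaling, the median of all genes moved to −0.30 and that of the subunits to −0.89. With a fold threshold of 1 on the log2 scale added, 4 subunits were lower: Polr1b, Polr1e, Polr2h and Polr3e. That rule called 7.27% of all genes. The 3 No-Trp mice all lay below the 3 control mice in 17 subunits, against 24.3% of all genes, and above them in 1, Polr3gl, against 24.3%.

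How many subunits were called depended on each mouse. The count was 0 without control mouse 101, 0 without control mouse 103, 0 without No-Trp mouse 105, 3 without No-Trp mouse 107, 8 without No-Trp mouse 108 and 13 without control mouse 102. The share of all genes called was not computed for those fits, so this is not shown to be particular to the subunits. The median fold change of the subunits stayed between −0.75 and −0.48 in those fits, and each of the 9 kept its sign. No-Trp mouse 107 held the lowest value of the 6 livers in 19 of the 28 subunits, and its mean over all of them was −0.74 relative to the control mean on the log2 scale, against −0.48 in mouse 105 and −0.33 in mouse 108.

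Markers of other cell states moved with the diet in the same livers, where 12% of all genes were called lower and 13.3% higher. Of 12 markers of dividing cells, 10 were called lower and 0 higher, with a summed level of 1452 to 1893 TPM in control livers and 114 to 451 in No-Trp livers, lowest in mouse 107, and none at 0. Of 11 hepatocyte markers tested, 5 were called higher and 0 lower, and the list summed to 25551 to 79400 TPM in control livers and 77348 to 144930 in No-Trp livers, highest in mouse 107. Of 6 erythroid markers tested, 4 were called lower, from 70.0 to 576 TPM down to 25.9 to 31.4, with Hba-a1, Hbb-bs and Hbb-bt at 0 in all livers. The part of these shifts in the subunit values was not tested. In bulk tissue, fewer cells of a type and less RNA per cell cannot be told apart.

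**Figure D2:**
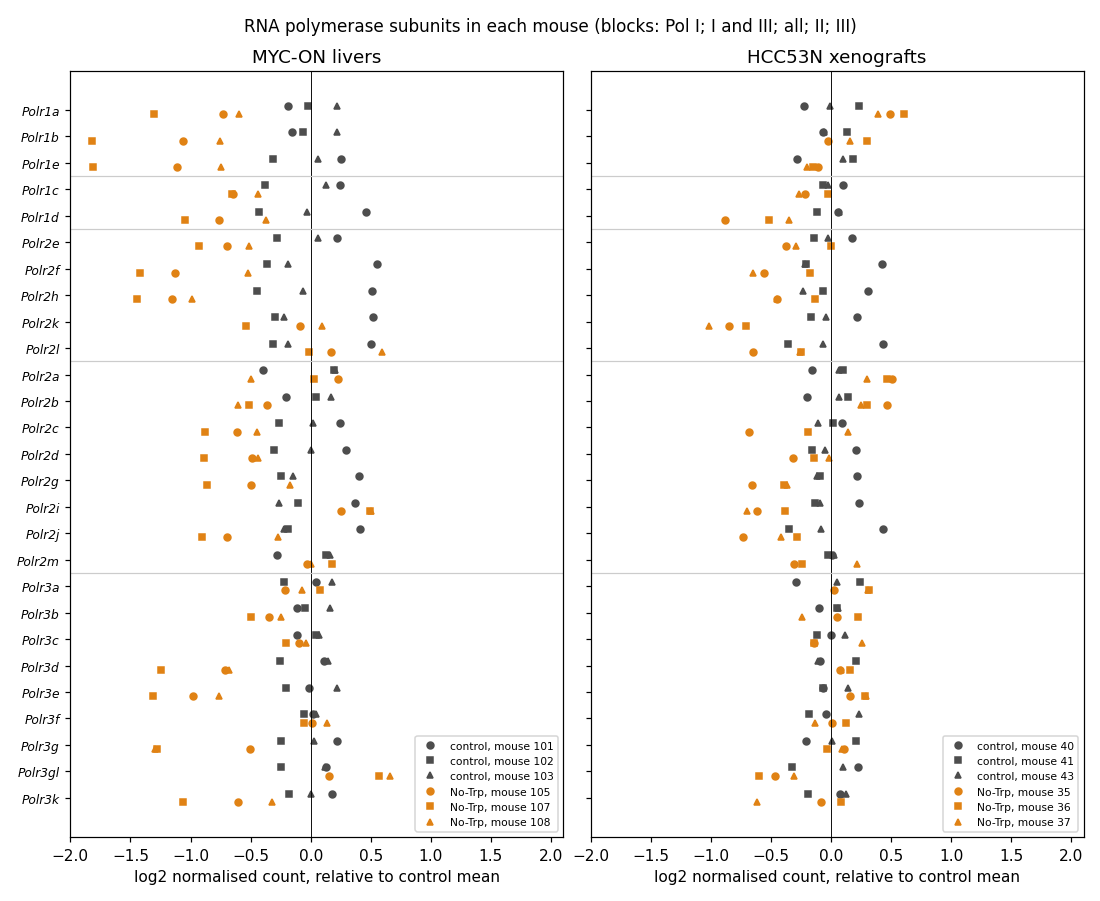
Log2 normalised count of the subunits in each mouse, relative to the mean of the 3 control mice of the same model (0), with MYC-ON livers on the left and HCC53N xenografts on the right. No-Trp livers (orange) lie left of the control livers in most subunits, with mouse 107 lowest in most, while No-Trp xenografts lie on either side of their controls.

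The 3 subunits that belong to Pol I alone fell in the No-Trp livers. Polr1a, the largest subunit (GRCm38.p6, chromosome 6, 71909053 to 71984935, plus strand), had 3752, 4222 and 4979.7 normalised counts in control mice 101, 102 and 103 and 2589.6, 1741 and 2837 in No-Trp mice 105, 107 and 108. All No-Trp mice lay below all control mice, and the log2 fold change was −0.85 (SE 0.23, edgeR adjusted p = 0.0356). Polr1b, the second largest, had 2749.8, 2925 and 3572 and 1469, 865 and 1809.8 in the same order. Its No-Trp mice were below the controls as well, at −1.16 (SE 0.28, edgeR adjusted p = 0.0286), a 2.23-fold decrease. Polr1e, also called PAF53, which with Cd3eap forms a module related to TFIIF, had 822, 557 and 721 in control livers and 319.8, 197 and 412 in No-Trp livers. It fell by 1.18 on the log2 scale (SE 0.30, edgeR adjusted p = 0.0315), without overlap. Its partner Cd3eap fell too, by 1.04 (SE 0.31, edgeR adjusted p = 0.0496), whereas the stalk subunit Twistnb had a fold change of 0.07 (adjusted p = 0.835) and the cleavage subunit Znrd1 one of −0.16 (adjusted p = 0.638).

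Rn45s, the precursor that Pol I makes, had 2827900, 490890 and 114540 normalised counts (scaled over all 12 libraries) in control livers 101, 102 and 103 and 73832, 80515 and 146640 in No-Trp livers 105, 107 and 108. The groups overlapped through mice 103 and 108, and its log2 fold change of −3.49 (SE 1.14) had an edgeR adjusted p of 0.0603. The RNA has no poly(A) tail and the labels name polyA RNA as the molecule, so these counts are no measure of Pol I output. Of 11 genes listed as Pol I factors, 5 were called lower and 1 higher (median −0.57), against 12% and 13.3% of all genes tested. Besides initiation and termination factors the list holds Nolc1, Tcof1 and Sirt7, which are neither. Nolc1 (−1.44) and Tcof1 were among the lower calls, and Sirt7 (0.80) was the higher one. The largest change was that of Tcof1, the treacle protein of the nucleolus, at −1.92 (SE 0.32, edgeR adjusted p = 0.0181).

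Polr1c and Polr1d, the assembly pair of Pol I and Pol III, did not pass the test. Polr1c had 1936, 1257 and 1788 normalised counts in the control mice and 1046, 1037 and 1206 in the No-Trp mice, without overlap, with a fold change of −0.60 (SE 0.19, edgeR adjusted p = 0.0579). Polr1d overlapped between the diets, at −0.75 (SE 0.27, edgeR adjusted p = 0.0811).

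The 5 subunits common to all enzymes split. Polr2h (RPB8; chromosome 16, 20717665 to 20722267, plus strand), whose E box window is printed above, had 1042, 538 and 698 normalised counts in control mice 101, 102 and 103 and 329, 267 and 369 in No-Trp mice 105, 107 and 108. This 2.36-fold decrease was the largest of all 28, at −1.24 (SE 0.27, edgeR adjusted p = 0.0252), and the groups did not overlap. Exons of Polr2h overlap those of Clcn2 on the other strand over 5.43% of their length. Polr2e (RPB5) went from 2769, 1969.5 and 2489.8 to 1470.5, 1255 and 1674 and also fell without overlap, by 0.72 on the log2 scale (SE 0.19, edgeR adjusted p = 0.0345). Polr2f (RPB6) went from 3289.9, 1745 and 1972 to 1028, 837 and 1562. No No-Trp mouse reached a control mouse, but the spread among controls was wide and the fold change of −1.03 (SE 0.32, edgeR adjusted p = 0.0523) did not pass.

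The other two shared subunits did not follow. Polr2k (RPB12) had 663, 377 and 397 normalised counts in mice 101, 102 and 103 and 434, 318 and 495 in mice 105, 107 and 108, and the groups overlapped. Its fold change was −0.20 (SE 0.28, edgeR adjusted p = 0.615), with a 95% interval of −0.87 to 0.46. Polr2l (RPB10) had 1189, 677 and 735 and 944, 833 and 1265, again with overlap, and a fold change of 0.23 (SE 0.27, edgeR adjusted p = 0.553) with an interval of −0.40 to 0.85. Control mouse 101 was the highest of the 3 control livers in all 5 shared subunits. Polr2k also has a processed pseudogene, Polr2k-ps, with which it may share reads.

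In Pol II, 1 of the 8 members passed the test, and it was not a catalytic one. Polr2a, the largest subunit, which carries the C-terminal repeats that are phosphorylated during transcription, had 2108, 3183 and 3191 normalised counts in the control mice and 3244, 2824 and 1966 in the No-Trp mice. The ranges covered each other, with a fold change of −0.08 (SE 0.25, edgeR adjusted p = 0.835) and an interval of −0.66 to 0.51. Polr2b, the second largest, had 1883, 2239.9 and 2439.8 and 1691, 1526 and 1431. The No-Trp mice all lay below the controls, and the fold change of −0.50 (SE 0.16, edgeR adjusted p = 0.055) missed the threshold. The called member was Polr2c, the larger assembly subunit, with 1334, 937 and 1144 against 734, 610.4 and 827. It was lower, at −0.65 (SE 0.19, edgeR adjusted p = 0.0461), and its exons overlap those of Dok4 on the other strand over 18.1% of their length, so its counts are uncertain.

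The stalk subunits Polr2d (−0.61, adjusted p = 0.0821) and Polr2g (−0.51, adjusted p = 0.157) and the smaller assembly subunit Polr2j (−0.63, adjusted p = 0.0976) had negative fold changes that edgeR did not call. Polr2i (RPB9), which acts in transcript cleavage and fidelity, was among the few with a positive one. It had 316, 227 and 204 normalised counts in control livers and 290.3, 344 and 346 in No-Trp livers, with overlap through control mouse 101, and 0.39 (SE 0.23, edgeR adjusted p = 0.234). Its exons overlap those of Tbcb over 26.8% of their length. Polr2m overlapped between the diets, at 0.04 (SE 0.17, edgeR adjusted p = 0.875) with an interval of −0.36 to 0.45. Of 31 general transcription factors of Pol II, 5 were called lower and 1 higher (median −0.34), against 12% and 13.3% of all genes tested. Taf5, a TFIID subunit, changed most, at −1.19 (SE 0.18, edgeR adjusted p = 0.0163). Of 24 elongation factors, 8 were lower and 2 higher (median −0.27), against the same shares of all genes. The largest change was the rise of Ell2, a part of the super elongation complex, by 1.56 (SE 0.36, edgeR adjusted p = 0.0268).

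In Pol III, 3 of 10 subunits were lower, and they were not the catalytic ones. Polr3e (RPC5; chromosome 7, 120917744 to 120947432, plus strand), the window of which carries both motifs, had 1644, 1446 and 1935 normalised counts in control mice 101, 102 and 103 and 845, 668 and 979 in No-Trp mice 105, 107 and 108. The groups were apart, and the log2 fold change of −1.01 (SE 0.19, edgeR adjusted p = 0.0202) had the smallest p of the 28. Polr3d (RPC4), its partner in the TFIIF-like module of Pol III, had 977, 756 and 1000.2 and 552, 382 and 564. It was lower, at −0.87 (SE 0.21, edgeR adjusted p = 0.0299), again without overlap. With Polr1e, all 3 members of the TFIIF-like modules were called lower, at −0.87 to −1.18.

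The catalytic subunits of Pol III did not pass the test. Polr3a had 789, 658 and 869.9 normalised counts in control livers and 661, 810.4 and 731 in No-Trp livers. The ranges overlapped, at −0.07 (SE 0.17, edgeR adjusted p = 0.772) with an interval of −0.48 to 0.33. Polr3b went from 1075, 1127 and 1299 to 912, 823 and 980.0, without overlap, at −0.37 (SE 0.15, edgeR adjusted p = 0.108). The initiation subunits Polr3c and Polr3f were close to level, at −0.11 (interval −0.44 to 0.21) and 0.03 (interval −0.32 to 0.39). Polr3k, which acts in termination and cleavage, had a fold change of −0.64 (edgeR adjusted p = 0.0735), with every No-Trp mouse below the controls, and was not called. Crcp, the Pol III subunit outside the rule, was called higher, by 0.62 (SE 0.16, edgeR adjusted p = 0.0316). Of 16 genes for initiation factors and the repressor of Pol III, 2 were called lower and 0 higher (median −0.18), against 12% and 13.3% of all genes tested. The lower calls thus lay near the share of all genes. The largest change was in Bdp1, a TFIIIB subunit, at −0.80 (SE 0.20, edgeR adjusted p = 0.03).

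At the RPC7 position, Polr3g fell in the livers, while the fold change of its paralog Polr3gl was positive and did not pass the test. Polr3g (chromosome 13, 81673843 to 81711013, minus strand) had 676, 488 and 593 normalised counts in control mice 101, 102 and 103 and 408, 239 and 236 in No-Trp mice 105, 107 and 108. Every No-Trp mouse was below every control mouse, at −0.99 (SE 0.27, edgeR adjusted p = 0.0373). Polr3gl (chromosome 3, 96577872 to 96594181, minus strand) had 729, 563 and 723 and 743, 991 and 1057. Its No-Trp mice were all above the controls, but the fold change of 0.47 (SE 0.20, edgeR adjusted p = 0.115) was not called. On the TPM scale, which takes no account of composition, Polr3gl was 71.8 ± 13.7 in control livers and 73.9 ± 13.7 in No-Trp livers.

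Their ratio does not depend on the scaling. The log2 ratio of Polr3g to Polr3gl reads was −0.11, −0.21 and −0.29 in control mice 101, 102 and 103 and −0.86, −2.05 and −2.16 in No-Trp mice 105, 107 and 108. The mean went from −0.20 ± 0.09 to −1.69 ± 0.72 (SD, n = 3 each), a 2.81-fold lower ratio. The exact two-sided permutation test gave p = 0.1, the smallest that 3 against 3 allows, with all 3 No-Trp mice below all 3 controls. Per exon length, Polr3g made up 25.0% to 27.3% of the pair in control livers and 8.31% to 18.2% in No-Trp livers.

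**Figure D3:**
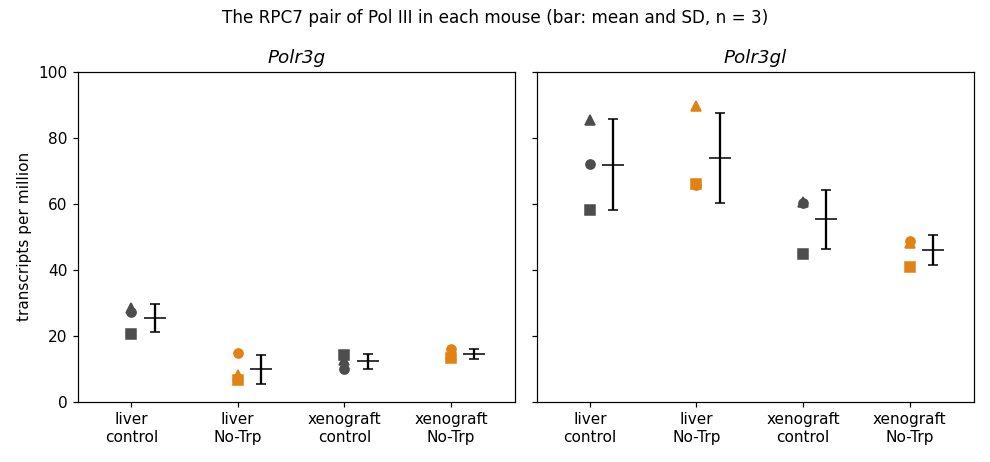
Level in TPM of Polr3g (left) and Polr3gl (right) in each mouse of the 4 groups, with the mean and SD of 3 mice as a bar beside the points. Polr3g is 20.4 to 28.5 in control livers and 6.47 to 14.7 in No-Trp livers, while Polr3gl overlaps between the diets on this scale.

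In the HCC53N xenografts no subunit passed the test. edgeR called 0 of 28 lower and 0 higher, against 0.129% and 0.245% of the 14704 genes tested, and at an unadjusted p under 0.05 there were 6 lower and 2 higher, against 16.9% of all genes in either direction. DESeq2 called 1 lower, Polr2k. Fold changes were negative in 18 and positive in 10, with a median of −0.17 and a range of −0.86 to 0.48. The No-Trp tumors all lay below the control tumors in 4 subunits (Polr1d, Polr2g, Polr2i and Polr2k), against 12.4% of all genes, and all above them in 4 (Polr1a, Polr2a, Polr2b and Polr3e), against 10.3%. Markers of dividing cells summed to 753 to 798 TPM in control tumors and 1110 to 1364 in No-Trp tumors, with 0 of 12 called and all 12 fold changes positive. Endothelial markers summed to 34.0 to 88.8 TPM in control tumors and 137 to 213 in No-Trp tumors, with 0 of 8 called, 7 fold changes positive and none of the markers at 0. Much of that gap was Lyve1, at 6.38 to 18.3 TPM in control tumors and 58.6 to 87.4 in No-Trp tumors. Each of the other endothelial markers overlapped between the diets. The part of these shifts in the subunit values was not tested.

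All 6 catalytic subunits had a positive fold change there, from 0.02 to 0.48. Polr1a had 1696, 2336 and 1975 normalised counts in control tumors 40, 41 and 43 and 2780.0, 3015 and 2607 in No-Trp tumors 35, 36 and 37. The groups did not overlap, at 0.48 (SE 0.16, edgeR adjusted p = 0.189). Polr2a had 3679, 4387 and 4297 and 5822, 5679.7 and 5056 in the same order, and Polr2b 1468, 1858 and 1772 and 2338, 2083 and 2003. Both were apart between the diets, at 0.42 (SE 0.15, edgeR adjusted p = 0.207) and 0.33 (SE 0.15, edgeR adjusted p = 0.303). The remaining ones overlapped: Polr1b had 1119.7, 1284 and 1129 in controls and 1154, 1449.5 and 1309 on the No-Trp diet. Polr3a had 513, 745 and 651 and 641, 783 and 779, and Polr3b 1099, 1221 and 1226 and 1220.5, 1379 and 995. Their fold changes were 0.15, 0.21 and 0.02, with intervals of −0.19 to 0.48, −0.22 to 0.63 and −0.34 to 0.39.

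All 5 shared subunits had a negative one, from −0.86 to −0.22. Polr2k had 1097, 842 and 921 normalised counts in control tumors 40, 41 and 43 and 525, 579.8 and 467 in No-Trp tumors 35, 36 and 37. It was the largest change in the xenografts, without overlap, at −0.86 (SE 0.17, edgeR adjusted p = 0.0709). Polr2e had 3318, 2656 and 2885 and 2272, 2945 and 2398, and Polr2f 4656, 3010.2 and 2984 and 2350.4, 3069.9 and 2212. Polr2h had 1292, 997 and 886 and 763, 952 and 763, and Polr2l 999, 577 and 705 and 472, 624 and 618. These 4 overlapped between the diets, with edgeR adjusted p from 0.306 to 0.529, and control tumor 40 was the highest of the control tumors in each of the 5.

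Among the others, Polr1d went from 3645, 3232 and 3660.5 normalised counts in control tumors to 1899, 2448 and 2749 on the No-Trp diet, at −0.57 (SE 0.17, edgeR adjusted p = 0.16). Polr2i went from 344, 267 and 274 to 191, 225 and 179.9, at −0.57 (SE 0.23, edgeR adjusted p = 0.262). Both were apart between the diets, and neither was called. Negative fold changes were also seen for the stalk subunits Polr2g (−0.47) and Polr2d (−0.16), the assembly subunits Polr1c (−0.17), Polr2c (−0.21) and Polr2j (−0.50), Polr1e (−0.17), Polr2m (−0.09) and Polr3k (−0.18). Polr3c (0.00), Polr3f (−0.01) and Polr3d (0.10) were close to 0, and Polr3e stood at 0.24 (edgeR adjusted p = 0.438).

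Fold changes in the xenografts tended to follow the length of the genes. Over the 28 subunits, the Spearman correlation of fold change with merged exon length was 0.707, against 0.178 over 14602 genes of known length. In the livers it was −0.164 over the same 28 and 0.0076 over 14029 genes. These are descriptions across genes that share their libraries. The catalytic subunits are among the longer ones, as are Polr3f and Polr2c, which are not catalytic and had fold changes of −0.01 and −0.21 there. Of the 13 subunits with under 3000 bases of exons, a limit chosen after their values were seen, 12 had a negative fold change in the xenografts, and of the 15 longer ones 6 did. Reads on no annotated gene made up 15.8% to 23.3% of the reads of control tumors and 14.6% to 15.2% of those of No-Trp tumors. Their part in the order by length was not tested.

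**Figure D4:**
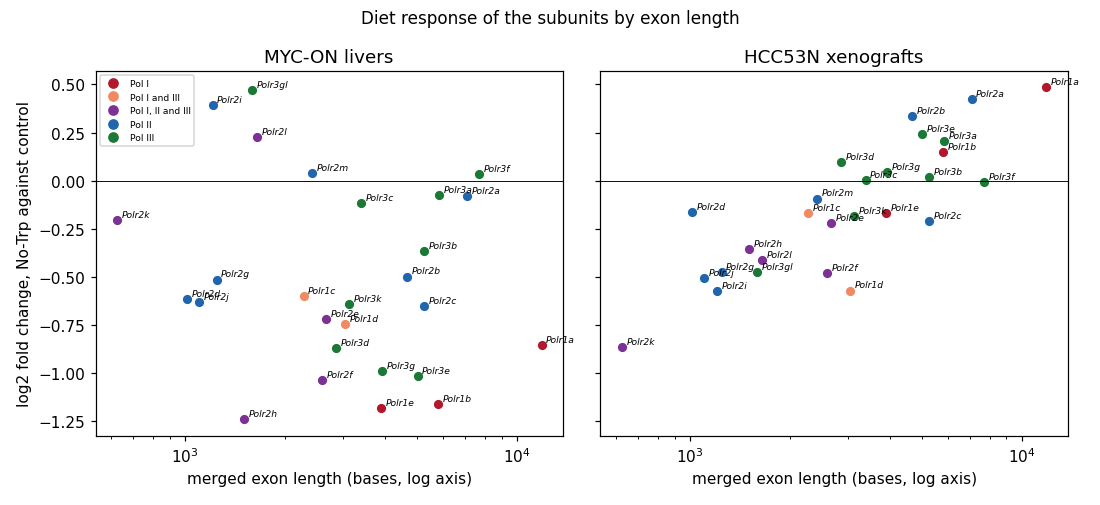
Log2 fold change of No-Trp against control for the subunits (vertical axis) by merged exon length in bases (log axis), coloured by polymerase, in livers (left) and xenografts (right). In the xenografts the fold change goes from −0.86 in Polr2k, the shortest, to 0.48 in Polr1a, the longest, and the livers show no such order.

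The pair at the RPC7 position did not repeat the liver pattern. Polr3g had 275, 368 and 319.7 normalised counts in control tumors 40, 41 and 43 and 344, 311 and 339 in No-Trp tumors 35, 36 and 37, and Polr3gl had 689.9, 470.4 and 631 and 426, 388 and 474. The diets overlapped for both, with fold changes of 0.05 (SE 0.20, edgeR adjusted p = 0.934) and −0.47 (SE 0.20, edgeR adjusted p = 0.276). The log2 ratio of their reads went from −0.88 ± 0.49 to −0.37 ± 0.10 (SD, n = 3 each), a difference of 0.52 with an exact permutation p of 0.2. The difference was 0.30 without control tumor 40 and 0.78 without control tumor 41.

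Whether the diet response differed between the models was tested with the interaction in a fit over all 12 libraries. It was called for 6 subunits, and the response was higher in the xenografts for 5 of them and lower for 1. Over all 15472 genes, 8.25% were called higher and 7.39% lower. The largest difference was that of Polr1a, 1.36 (SE 0.28, edgeR adjusted p = 0.0118), with fold changes of −0.85 in livers and 0.48 in xenografts. Polr1b differed by 1.33 (SE 0.32, edgeR adjusted p = 0.0208) and Polr3e by 1.28 (SE 0.23, edgeR adjusted p = 0.00922). Polr3d and Polr2b differed by 0.99 (edgeR adjusted p = 0.0273) and 0.86 (edgeR adjusted p = 0.0211). The one with a lower response in the xenografts was Polr3gl, at −0.92 (SE 0.27, edgeR adjusted p = 0.042). Polr3g missed the threshold at 1.06 (SE 0.34, edgeR adjusted p = 0.0519), and so did Polr2i at −0.94 (SE 0.32, edgeR adjusted p = 0.0649). Polr2k, at −0.63 (SE 0.35, edgeR adjusted p = 0.23), had the third most negative difference.

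Polr1a and Polr3e kept their call in every fit that left out a library. The count of higher responses was 2 without control liver 103, 8 without control liver 102 and 4 to 6 without any other library. Shares over all genes were not computed for these fits. Polr3gl kept its call when No-Trp liver 105 or control tumor 41 was left out and lost it without any other single library. The markers of dividing cells were called with a higher response in the xenografts in 12 of 12 genes (median difference 2.81), against 8.25% of all genes. Their part in the subunit differences was not tested.

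**Figure D5:**
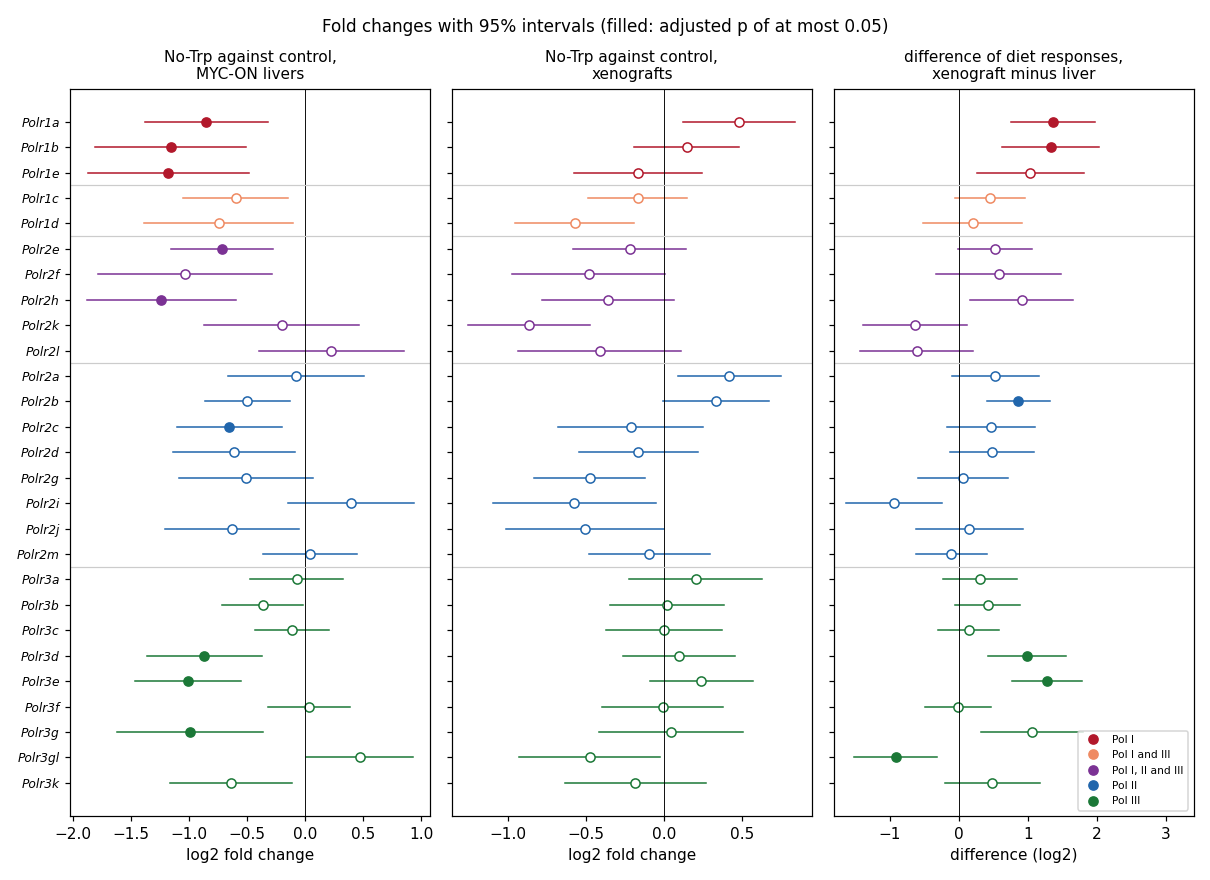
Log2 fold change of the subunits (point) with its 95% interval (line), filled where the edgeR adjusted p was at most 0.05, for the diet in livers (left), the diet in xenografts (middle) and the difference between those responses (right). All 3 subunits of Pol I alone are filled in the livers and none is in the xenografts, and the differences of Polr1a, Polr1b, Polr2b, Polr3d and Polr3e lie above 0.

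On the control diet, xenografts and livers differed in 13 subunits. The models differ in tissue site, host strain and driver together, and in sex where the hosts were the females named in the methods. These cannot be told apart. edgeR called 11 subunits lower in the xenografts and 2 higher, against 28.7% and 30.8% of all genes. With the fold threshold, 4 were lower (Polr1a, Polr1b, Polr3e and Polr3g), against 20.2%. Of the 12 markers of dividing cells, 10 were also called lower in the xenografts and 0 higher, with 753 to 798 TPM in sum in control tumors and 1452 to 1893 in control livers, and their part in the subunit differences was not tested. On counts normalised over all 12 libraries, Polr1b had 3182, 3406 and 4088 in control livers 101, 102 and 103 and 989, 1132 and 989.6 in control tumors 40, 41 and 43. Every tumor was below every liver, at −1.78 (SE 0.23, edgeR adjusted p = 4.08e-05). Polr1a had 4341, 4917 and 5699 in livers and 1498, 2059.7 and 1731 in tumors, and Polr3e 1902, 1684 and 2214 and 688, 688 and 790.4. Both were apart between the models, at −1.50 (SE 0.20, edgeR adjusted p = 4.70e-05) and −1.42 (SE 0.17, edgeR adjusted p = 1.77e-05).

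Polr3g was lower, at −1.26 (SE 0.24, edgeR adjusted p = 7.42e-04) and Polr3gl at −0.56 (SE 0.19, edgeR adjusted p = 0.0245). Polr1c, Polr1e, Polr2b, Polr3a, Polr3c and Polr3d made up the rest of the lower calls, at −0.45 to −0.77. Polr2k was called higher in the xenografts. It had 767, 439 and 454 in livers and 969, 743 and 807 in tumors, overlapping through liver 101, at 0.60 (SE 0.24, edgeR adjusted p = 0.0497). Polr2g, with 1806, 1160.1 and 1222 and 2225, 1800.5 and 1753, stood at 0.46 (SE 0.21, edgeR adjusted p = 0.077) and was not called.

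Call numbers moved with single libraries here too, and shares over all genes were not computed for those fits. The count of lower subunits was 7 without control liver 103 and 8 to 12 without any other. The count of higher subunits was 0 without control liver 102, control liver 103 or control tumor 40, and 3 without control liver 101. It was 1, with the call of Polr2k lost, without No-Trp liver 105, any of tumors 35, 36 and 37, or control tumors 41 or 43. The comparison shares its control livers with the diet comparison in livers, so agreement between them is no separate evidence. Side by side, Polr1a, Polr1b, Polr3e and Polr3g stood at −1.50, −1.78, −1.42 and −1.26 in xenografts against livers and at −0.85, −1.16, −1.01 and −0.99 on the No-Trp diet in livers.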

How the data were processed

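Polyadenylated RNA of 12 mice, 3 in each of 4 groups taken from the labels, was sequenced. The authors deposited raw read counts per gene and library, made with HTSeq from reads trimmed with Trim Galore and aligned with STAR 2.7.2b to the mouse genome mm10, with its iGenomes annotation. Gene positions, exon lengths for TPM and overlaps were taken from GENCODE annotation of GRCm38, the same assembly, by gene symbol. The strand setting of the counting is not given in the sources used here, so overlapping genes are uncertain. Rows for reads not counted (24.7% to 39.4% of reads) were left out.

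Counts were tested by the robust quasi-likelihood method of edgeR 4.0.16 (R 4.3.3), after filterByExpr and TMM scaling, with Benjamini-Hochberg adjustment over all genes tested, each model alone for the diet and all 12 libraries together for the interaction and for the models. The threshold was 0.05 for the adjusted p and, where a fold threshold is named, 1 in either direction for the log2 fold change. SEs are the fold change divided by the square root of F. All 28 subunits passed the filter in every comparison. The mice are separate animals, and intervals cover the spread among 3. The script was tested on simulated counts. DESeq2 1.42.0, other scalings and filters, a mark of resubmission in the file names as covariate, leaving out Rn45s and leaving out each library were alternatives. The mark is on control liver 101, No-Trp liver 108 and control tumors 41 and 43, and on none of the No-Trp tumors. In the xenografts it is thus partly confounded with the diet.

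The members and gene lists were chosen with earlier results of these data known. Values per mouse are given for the 3 largest fold changes each way in a comparison, the catalytic and shared subunits and the RPC7 pair. From each pathway list the largest change is named. Cd3eap, Twistnb and Znrd1 are named as the subunits outside the rule, and the search for the B box was added after the sequences were seen. Of the members, 1 enters all counts and medians but is not reported by itself or drawn here.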

Additional observations from a re-analysis of the deposited data

Results flagged for a closer look

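The diet response differed between xenografts and livers in 6 subunits by the interaction test of edgeR. On the log2 scale, xenograft minus liver, the difference was 1.36 for Polr1a and 1.33 for Polr1b, the catalytic subunits of Pol I. It was 0.86 for Polr2b of Pol II and 0.99 and 1.28 for Polr3d and Polr3e of Pol III. It was −0.92 for Polr3gl. In Polr1a every No-Trp liver lay below and every No-Trp tumor above its controls, and the same held for Polr2b and Polr3e. Over all genes, 24.3% lay below without overlap in the livers and 10.3% above in the xenografts. The share of all genes that did both was not computed.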

How the results depend on the processing

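Of the 112 fold changes of subunits over the 4 comparisons, 87 kept their direction under every alternative run. Another 25 changed sign in at least 1, all of them uncalled and at most 0.23 in size. The 28 called ones gave 487 values, counted per fold change and alternative fit, and the same fits served all subunits. None of these values was reversed, and 87 lost the call. With library totals, the median of all genes moved to −0.30 in livers, 0.11 in xenografts, 0.41 in the interaction and 0.17 between models. The subunits then had medians of −0.89, −0.058, 0.82 and 0.014, the last reversed from −0.16, with 8 lower by both thresholds in livers, 8 higher and 0 lower in the interaction, and 7 lower between models. With the resubmission mark as covariate, 17 were lower in livers, the xenograft median was −0.25, 0 were lower in the interaction and 1 was higher between models. One fit over all 12 libraries called 16 lower in livers. DESeq2 called 1 lower in xenografts and 2 lower in the interaction, and RLE factors also gave 2. Without a filter, 0 were lower in the interaction and 1 higher between models. Without Rn45s, 1 was higher between models. The shares of all genes called under these alternatives, or with 1 library left out, were not computed. Whether the subunits or genes at large moved can therefore not be told from these counts. Causes were not tested.

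Leaving out 1 library gave 0 to 13 lower in livers (0 to 6 by both thresholds), 0 to 1 lower and 2 to 8 higher in the interaction, and 7 to 12 lower and 0 to 3 higher between models, where the median ran from −0.30 to −0.0045. The 1 lower response without control liver 101 was Polr2i. No paired analysis was possible because no groups share animal numbers. With 3 mice a group, the exact test of the RPC7 ratio cannot go below p = 0.1.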

Other observations

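Of 16 factors that assemble or import RNA polymerases, 4 were called lower and 0 higher in the No-Trp livers (edgeR, median −0.49 on the log2 scale). Of all genes tested there, 12% were called lower and 13.3% higher. The largest change was that of Ruvbl2, an ATPase of the R2TP chaperone complex, at −1.37 (SE 0.35, edgeR adjusted p = 0.0326). In the interaction, 3 of the 16 had a higher response in the xenografts and 0 a lower one, against 8.25% and 7.39% of all genes. The mitochondrial RNA polymerase and its factors had 1 of 4 lower in the No-Trp livers, against the same 12% of all genes. It was Tfam, which packages mitochondrial DNA, at −0.62 (SE 0.16, edgeR adjusted p = 0.0361). On the control diet all 4 were called lower in xenografts than in livers, against 28.7% of all genes. Among the Pol III factors in the xenografts, the largest fold change on the diet was that of Snapc1, a subunit of the snRNA activating complex, at −1.12 (SE 0.23, adjusted p = 0.078).

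Other cell markers moved less with the diet in the livers, where 12% of all genes were called lower and 13.3% higher. Of 7 macrophage markers 0 were called lower and 1 higher, of 6 lymphocyte markers 0 and 0, of 8 endothelial markers 0 and 2, of 8 stellate and fibroblast markers 2 and 1, and of 6 cholangiocyte markers 0 and 0. Rn45s in the xenografts had a log2 fold change of −1.18 (SE 0.21, edgeR adjusted p = 0.0517), with 90740 to 142880 normalised counts in control tumors and 48211 to 61716 in No-Trp tumors.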
